A study of Homo sapiens with 30 samples.

Results

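Chromatin accessibility was examined around 39 genes of DNA replication and mitosis, chosen by name as helicase and licensing factors, the replication clamp and nucleotide suppliers, cyclins with CDK1 and the CDC25 phosphatases, mitotic kinases and checkpoint or ubiquitin factors, chromosome and spindle proteins, and cell cycle transcription factors. Peaks were kept where the summit, the position of highest signal, lay within 25 kb of the RefSeq body of 1 of these genes. That gave 9177 of the 4661359 peaks in the 30 lists, and 708 of the 443732 regions (windows of 501 bp placed on summits) on which all libraries were compared. Of these 708 regions, 80 lay within 1 kb of the start of a member gene, 73 lay within 1 kb of another gene's start, and 555 were distal, more than 1 kb from any gene start.

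The assay was ATAC-seq, in which the Tn5 transposase cuts accessible DNA, in LNCaP and VCaP, established human prostate cancer lines that respond to androgen. Every group was first kept for 48 hours on 8% serum stripped of steroids with charcoal, followed by 24 hours of vehicle or R1881, a synthetic androgen. LNCaP received vehicle, 0.03, 0.06, 0.1 or 10 nM, and VCaP received vehicle, 0.01, 0.03, 0.06 or 10 nM, with 3 libraries per group and 15 per line. The study asked which accessible sites go with growth that responds to androgen dose in a non-linear way, and for the genes described here the question was whether their promoters follow such a response.

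Before S phase, licensing factors load the MCM helicase onto origins, and E2F factors drive the genes that supply the replication machinery. Later, cyclin B with CDK1 drives entry into mitosis. Many mitotic genes are held silent in resting cells through CHR (cell cycle homology region) elements and are activated with MYBL2 and FOXM1. In prostate cancer cells low androgen concentrations promote growth and high concentrations restrain it.

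Promoter sequences of the genes that the results turn on are shown from RefSeq (GRCh38.p14), each from 250 bases before to 50 bases after the gene start, 5′ to 3′ on the gene's strand. CDC25A, E2F2, RRM2 and AURKB are those with a lower promoter rank at 10 nM in LNCaP that had an entry, and CCNB1 and PLK1 are shown as promoters without a call. Capitals mark matches, on either strand, to TTTCCCGC or TTTGGCGC (E2F), TTTGAA or TTCGAA (CHR), and CCAAT.
CDC25A: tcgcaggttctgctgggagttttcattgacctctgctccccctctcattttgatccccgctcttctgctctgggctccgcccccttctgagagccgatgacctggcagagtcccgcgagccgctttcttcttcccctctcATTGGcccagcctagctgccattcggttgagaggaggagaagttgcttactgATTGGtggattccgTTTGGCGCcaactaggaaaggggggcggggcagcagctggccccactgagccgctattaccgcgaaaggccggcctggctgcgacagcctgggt
E2F2: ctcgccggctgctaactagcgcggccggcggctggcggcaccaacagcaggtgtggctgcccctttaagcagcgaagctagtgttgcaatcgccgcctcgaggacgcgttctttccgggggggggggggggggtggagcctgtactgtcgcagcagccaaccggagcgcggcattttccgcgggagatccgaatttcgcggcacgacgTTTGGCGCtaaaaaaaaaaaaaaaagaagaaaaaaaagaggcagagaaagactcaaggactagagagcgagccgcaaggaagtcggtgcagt
RRM2: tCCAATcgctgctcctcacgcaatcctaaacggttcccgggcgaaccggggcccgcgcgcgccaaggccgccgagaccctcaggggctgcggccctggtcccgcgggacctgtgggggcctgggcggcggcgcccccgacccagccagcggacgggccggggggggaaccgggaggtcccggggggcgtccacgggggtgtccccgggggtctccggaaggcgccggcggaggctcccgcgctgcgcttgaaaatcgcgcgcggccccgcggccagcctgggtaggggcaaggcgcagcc
AURKB: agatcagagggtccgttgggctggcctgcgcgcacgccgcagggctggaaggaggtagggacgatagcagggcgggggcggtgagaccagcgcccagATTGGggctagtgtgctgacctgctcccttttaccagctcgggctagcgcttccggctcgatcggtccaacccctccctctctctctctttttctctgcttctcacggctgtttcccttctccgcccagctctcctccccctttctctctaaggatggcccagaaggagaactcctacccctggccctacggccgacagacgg
CCNB1: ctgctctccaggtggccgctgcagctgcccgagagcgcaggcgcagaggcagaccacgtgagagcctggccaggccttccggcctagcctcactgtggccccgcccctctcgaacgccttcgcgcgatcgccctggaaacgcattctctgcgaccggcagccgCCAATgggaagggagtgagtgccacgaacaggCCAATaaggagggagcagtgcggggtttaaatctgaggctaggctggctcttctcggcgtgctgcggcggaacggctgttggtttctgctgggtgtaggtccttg
PLK1: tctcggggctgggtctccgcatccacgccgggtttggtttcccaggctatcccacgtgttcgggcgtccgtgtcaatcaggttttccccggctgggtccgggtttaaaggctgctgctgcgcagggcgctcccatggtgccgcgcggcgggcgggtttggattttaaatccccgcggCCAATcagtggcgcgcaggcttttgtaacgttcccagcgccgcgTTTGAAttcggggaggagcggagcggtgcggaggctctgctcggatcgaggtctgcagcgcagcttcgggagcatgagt
CDC25A and E2F2 held the E2F letters, beginning 44 and 42 bases before their starts. PLK1 held the CHR letters 29 bases before its start with CCAAT at 73 bases before it, whereas CCNB1 held CCAAT at 87 and at 55 bases before its start. RRM2 and AURKB held only CCAAT, at 249 and at 153 bases before their starts. AURKB has 2 RefSeq starts and lies on the minus strand. The stretch shown for it (chr17:8210176-8210475) is inside the gene body, which reaches 8210575, and bases upstream of that end were not searched.

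RefSeq promoter entries were matched for 32 of the 39 genes, and MCM4, MCM5, AURKA, UBE2C, BIRC5, TPX2 and FOXM1 had none. The E2F letters stood in 9 of the 32 promoters (28.1%) against 3.05% of 15843 promoters of protein-coding genes. The CHR letters stood in 14 (43.8%, against 13.5%), CCAAT in 24 (75%, against 36.4%), and both CHR and CCAAT in 13 (40.6%, against 5.59%). The exact palindromic androgen response element was in 0 of the 32 and in 0 of the 15843. With no match in any promoter, that search cannot tell the members from other genes, and inexact matches were not searched. No motif searched contains another. A match is a description of letters and not a measured binding site.

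The lists hold no read counts, so the depth in reads is unknown. The background pileup recovered from the fold enrichment and p-value columns ranged from 3.06 to 5.26 in LNCaP and from 1.09 to 2.74 in VCaP, and the lists held 135254 to 223998 and 105034 to 170787 peaks. LNCaP lists at 10 nM were long, with 167378, 219021 and 223998 peaks against 135254 to 174513 with vehicle. Of the luminal prostate markers reported, the starts of HOXB13, KRT18, TMPRSS2 and FOXA1 had a peak in all 30 libraries, KLK3 in the 15 LNCaP libraries and 0 of VCaP, and KRT8 in 0 and 1. Of the basal, stromal and immune markers, TP63, KRT14, COL1A1, PTPRC and ITGAM were at 0 in every library, while ACTA2 had a peak in all 30, CD3E in 15 LNCaP and 14 VCaP libraries, and COL1A2 in 14 and 11.

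Values are percentile ranks by −log10 p of the strongest peak overlapping a region, from 0 (not listed) to 100, once all lists of a line had been cut to equal length. A rank gives a peak's place in its own list and not its absolute signal, and near 100 large differences in signal span few points. Where 3 or more of the 15 libraries of a line listed a region it entered limma, which covered 188450 regions in LNCaP and 142364 in VCaP. A call means an adjusted p (Benjamini-Hochberg) under 0.05. Members' windows next to each other can share 1 broad peak, so promoters are counted by gene with 1 leading region each, that of highest mean rank within 1 kb of the gene start. In bulk libraries a change in the share of cells with an open site, or in cycling cells, cannot be told apart from a change within each cell. The labels do not say whether replicates are separate cultures, so p-values may measure technical spread only.

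Promoters of the replication and mitosis genes were open at every dose. All 39 had a peak in every LNCaP library, and in VCaP 38 had one in 1 vehicle library and 39 in the other 14. The comparison set was the 16893 protein-coding genes with a region within 1 kb of a start. Of their leading promoters 79.7 to 84.4% had a peak per library in LNCaP and 79.2 to 83.4% in VCaP. The median rank of the 39, listed or not, ranged from 95.1 to 97.0 over LNCaP libraries. The median over leading promoters of all these protein-coding genes, taken only where a peak was listed, ranged from 90.8 to 93.9. In VCaP the same ranges were 92.1 to 95.6 and 89.1 to 91.2. CDC25C, the phosphatase that activates CDK1 at mitotic entry, had the highest median in both lines, 99.9 in LNCaP and 99.96 in VCaP. CDT1, which helps to load the helicase, had the lowest, 71.6 and 43.4, and it had a peak in 14 of the 15 VCaP libraries. Its leading region was centred 901 bp downstream of the start, near the 1 kb limit. In VCaP 10 libraries had a peak summit within 1 kb of the CDT1 start.

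**Figure D1:**
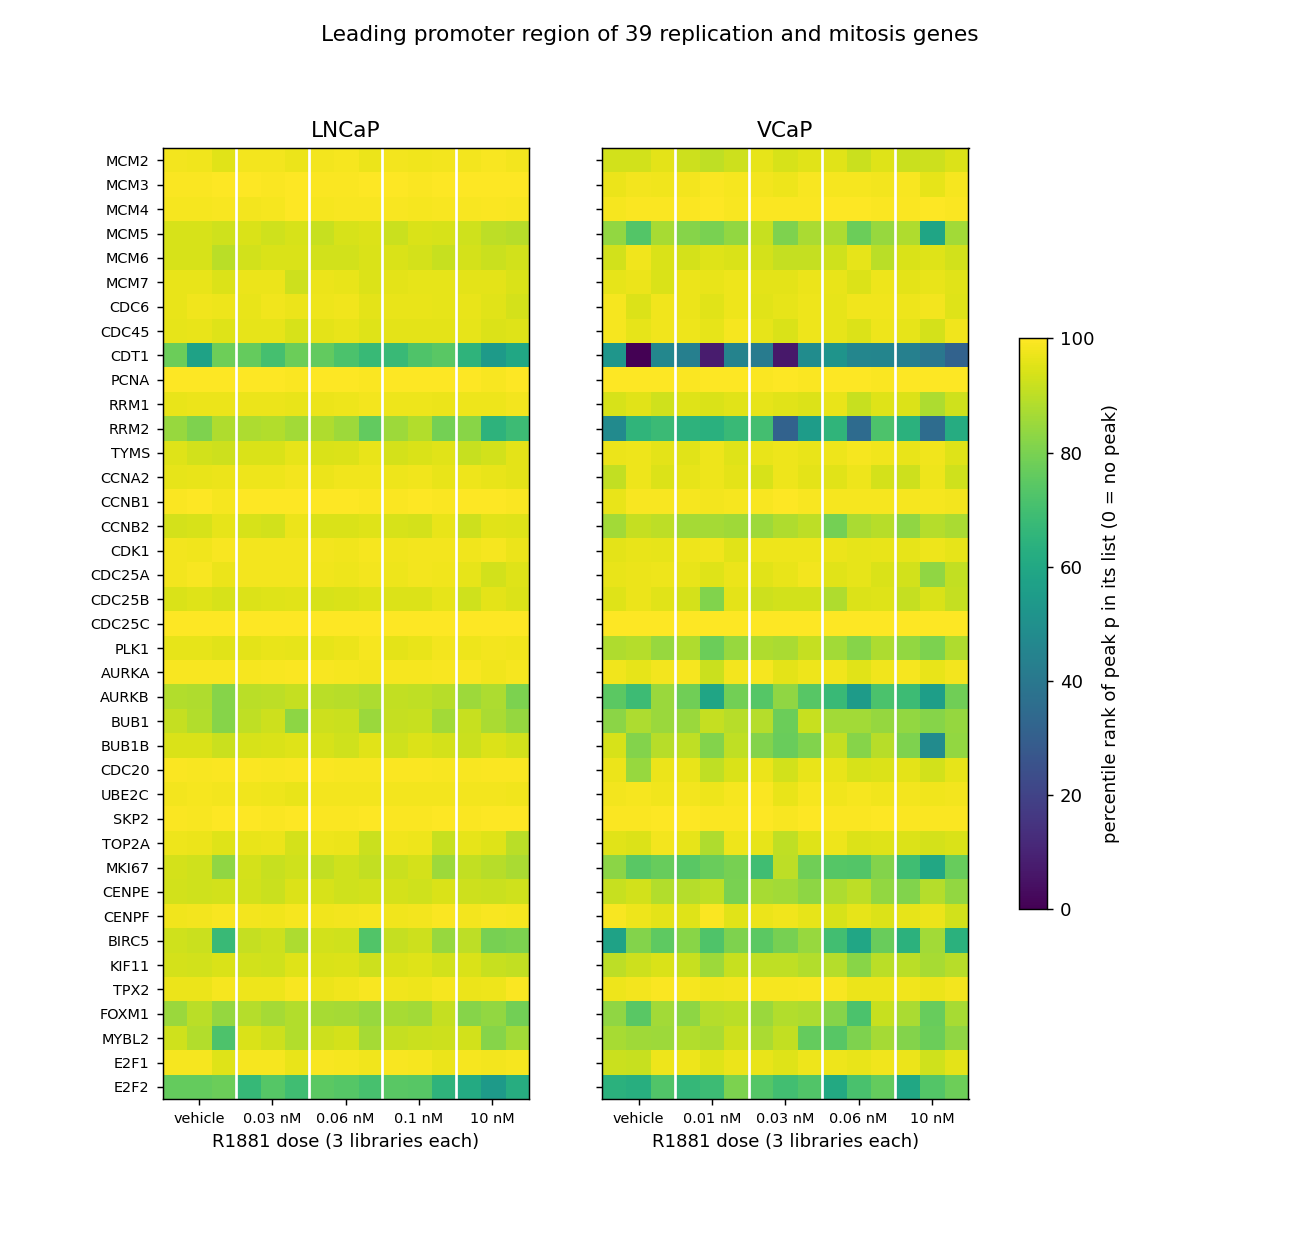
Percentile rank (colour, 0 for no peak to 100 for the strongest) of the leading promoter region of each of the 39 genes (rows) in each library (columns, 3 per dose) of LNCaP and VCaP. Most rows stay near the top of the scale at every dose, and CDT1, RRM2 and E2F2 are among the lowest.

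Among the helicase and licensing genes, medians over the LNCaP libraries ran from 71.6 for CDT1 to 99.7 for MCM3. For MCM2, a helicase subunit, the LNCaP ranks were 98.4, 97.7 and 95.4 with vehicle and 98.4, 98.9 and 98.3 at 10 nM. For CDC6, a helicase loader, they were 96.7, 97.7 and 97.6 with vehicle and 96.6, 95.6 and 93.5 at 10 nM. The vehicle and 10 nM ranges overlapped for MCM2 and did not for CDC6, and neither gene was called (adjusted p 0.24 and 0.090 in limma).

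PCNA, the sliding clamp of the replication fork, held its place near the top, with LNCaP ranks from 99.1 to 99.97 over 15 libraries and VCaP ranks from 99.4 to 99.9. RRM2, the regulatory subunit of ribonucleotide reductase, was lower in the lists and more variable. Its LNCaP ranks were 84.7, 80.7 and 88.0 with vehicle, from 76.1 to 88.5 (median 86.1) over the 9 low-dose libraries, and 82.3, 64.7 and 68.6 at 10 nM. In VCaP they were 47.8, 65.5 and 68.2 with vehicle and 63.7, 35.2 and 61.8 at 10 nM. The LNCaP 10 nM libraries overlapped vehicle through 1 library, and the VCaP groups overlapped in part.

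Among the cyclin, CDK1 and CDC25 promoters, medians over LNCaP libraries ran from 94.4 for CCNB2 to 99.9 for CDC25C, and in VCaP from 87.4 for CCNB2 to 99.96 for CDC25C. CCNB1, the mitotic cyclin B1, stood at 99.6, 99.8 and 98.8 with vehicle and at 99.8, 99.9 and 99.3 at 10 nM in LNCaP. CDK1, its kinase, stood at 98.2, 97.9 and 99.0 with vehicle and at 97.7, 98.5 and 97.2 at 10 nM. CDC25A, the phosphatase that activates CDK2 and CDK1, stood at 98.2, 99.0 and 97.2 with vehicle, between 97.6 and 98.3 at the 9 low-dose libraries, and at 96.5, 93.0 and 95.2 at 10 nM. Every 10 nM library of CDC25A lay below every other LNCaP library. The VCaP ranks of CDC25A were 96.7, 97.3 and 97.3 with vehicle, from 94.4 to 98.2 (median 96.2) at low doses, and 93.0, 83.4 and 90.9 at 10 nM, again below every other library of the line.

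Of the mitotic kinase and ubiquitin genes, PLK1, the polo-like kinase of spindle assembly, had LNCaP ranks of 96.1, 96.4 and 95.3 with vehicle and 97.3, 98.2 and 98.0 at 10 nM, which did not overlap but were not called (adjusted p 0.11 in limma). SKP2, the ubiquitin ligase subunit that targets p27, held 99.2 to 99.9 over the 15 LNCaP libraries. AURKB, the chromosomal passenger kinase, had LNCaP ranks of 88.4, 88.0 and 81.9 with vehicle, from 87.5 to 91.1 (median 89.8) at low doses, and 85.5, 87.6 and 80.5 at 10 nM. The AURKB low-dose ranks lay above the vehicle and 10 nM ranks but for a small overlap.

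Among chromosome and spindle genes, TOP2A, which untangles sister chromatids, had LNCaP ranks of 97.5, 97.1 and 95.1 with vehicle and 96.1, 95.1 and 89.7 at 10 nM. MKI67, the proliferation marker Ki-67, had 93.5, 92.7 and 83.3 with vehicle and 90.9, 89.4 and 87.1 at 10 nM. Both overlapped between vehicle and 10 nM. Of the transcription factors, E2F1 had 98.4, 98.6 and 94.9 with vehicle and 98.6, 98.2 and 98.6 at 10 nM. FOXM1, which drives mitotic genes, had 85.0, 89.8 and 84.2 with vehicle, from 84.7 to 91.1 (median 87.0) at low doses, and 82.0, 83.9 and 78.7 at 10 nM, the lowest 3 of its LNCaP libraries. E2F2, an activating E2F, had 76.4, 76.3 and 77.4 with vehicle, from 65.2 to 74.98 (median 73.5) at low doses, and 61.0, 54.7 and 62.4 at 10 nM. Here too every 10 nM library lay below every other LNCaP library. In VCaP, E2F2 stood at 63.8, 62.9 and 72.9 with vehicle and at 59.6, 73.3 and 78.0 at 10 nM, which overlapped.

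**Figure D2:**
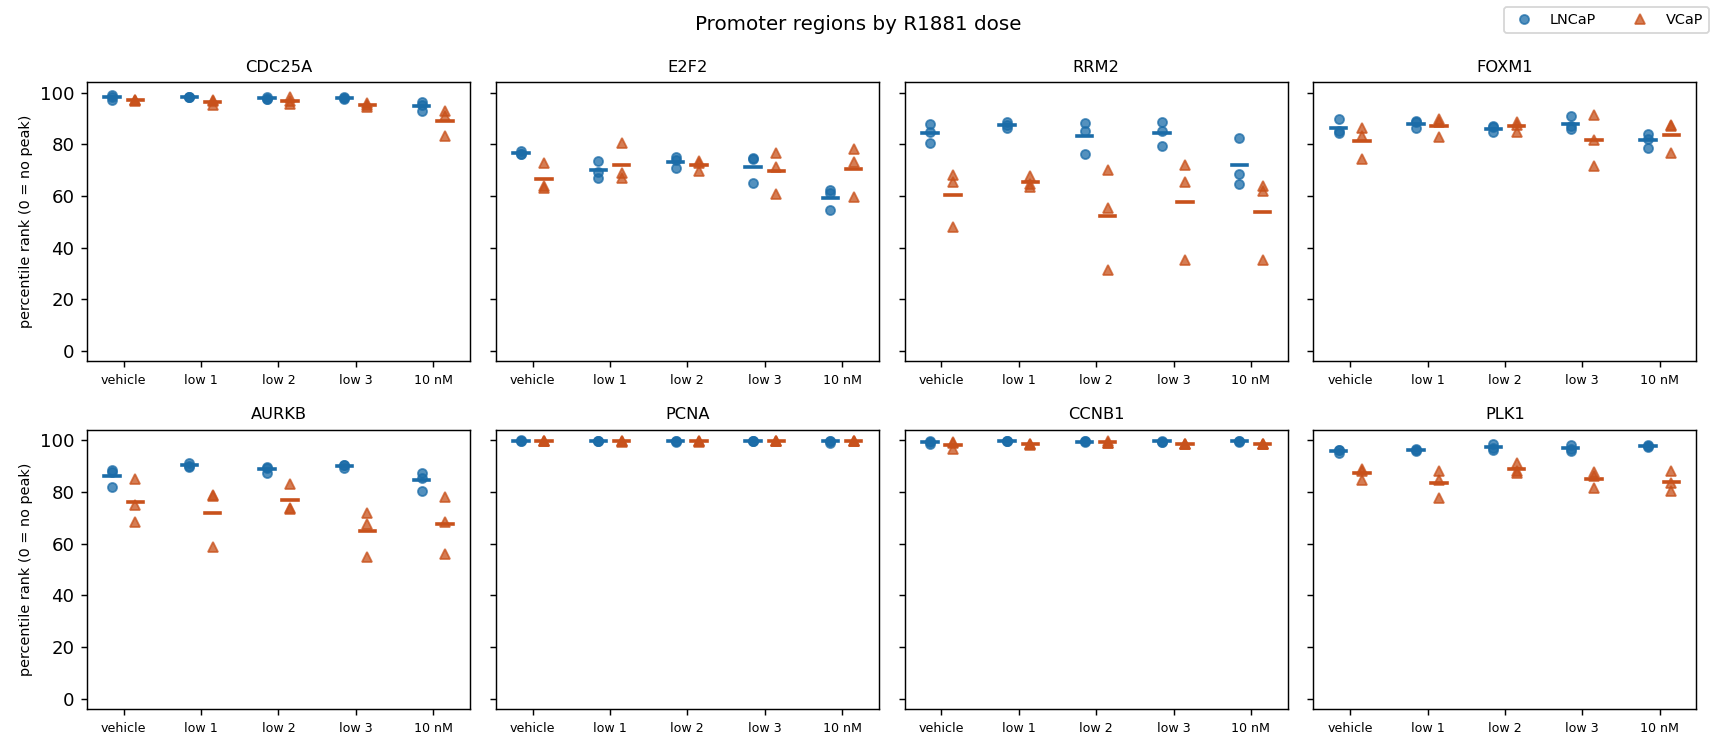
Percentile rank (vertical axis, 0 for no peak) of 8 leading promoter regions by dose, with points for libraries and bars for group means; low 1 to 3 are 0.03, 0.06 and 0.1 nM in LNCaP and 0.01, 0.03 and 0.06 nM in VCaP. CDC25A falls at 10 nM in both lines, and PCNA and CCNB1 stay near 100.

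At 10 nM against vehicle in LNCaP, the promoters of CDC25A, E2F2 and RRM2 were lower and 0 were higher among the 39. CDC25A fell by 3.25 percentile points (SE 0.835, adjusted p 0.0094), E2F2 fell by 17.3 (SE 3.66, adjusted p 0.0025) and RRM2 fell by 12.6 (SE 4.13, adjusted p 0.037), by limma with Benjamini-Hochberg adjustment. Over the leading promoters of 14634 protein-coding genes 6.68% were called lower and 1.56% higher, so 3 of 39 lower is a share near the background. The median difference of the 39 was −0.21 points, against −1.05 points over all genes. With all peaks as deposited 0 of the 39 were called lower (1.26% of all genes), and a fit of only the 2 groups called 1 (E2F2). With the replicate block TOP2A was called lower as well. Ranking by fold enrichment called 14, with 34.9% of all genes lower, and kept CDC25A, E2F2 and RRM2. Log2 fold enrichment called 12, with 33.6% of all genes lower, and of the 3 kept only CDC25A (E2F2 0.064, RRM2 0.093). Leaving out 10 nM replicate 4 or 5, or vehicle replicate 3 or 5, ended the RRM2 call, with adjusted p from 0.081 to 0.17. The 10 nM lists were also the longest as a group, and the part of list length in these falls was not tested beyond the setting with all peaks.

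Against the mean of the low doses, LNCaP promoters at 10 nM were lower for 5 genes, AURKB, CDC25A, E2F2, FOXM1 and RRM2, and higher for 0. CDC25A fell by 3.10 points (SE 0.682, adjusted p 0.0056), E2F2 fell by 12.1 (SE 2.99, adjusted p 0.012) and RRM2 fell by 13.1 (SE 3.38, adjusted p 0.016) in limma. FOXM1 fell by 5.85 (SE 1.59, adjusted p 0.021) and AURKB fell by 5.20 (SE 1.57, adjusted p 0.037). The AURKB window (chr17:8209800-8210300) did not hold the strongest summit near the gene's start. In LNCaP that summit lay at −390 to −228 bp from the nearest start, upstream of the window. Over all genes 4.24% were lower and 0.875% higher, and the median difference was −0.64 points in the 39 and −1.11 over all genes. This contrast and the one before share the 10 nM libraries. With all peaks as deposited only RRM2 was called (0.684% of all genes lower). Log2 fold enrichment called CDC25A and CDK1 (3.99% of all genes lower). Ranking by fold enrichment called 7, with 24.3% of all genes lower, and lost E2F2 (adjusted p 0.062) and AURKB (0.055) in limma. With the replicate block MCM5 and CDT1 were called lower as well. Without 10 nM replicate 4 the 2 calls were AURKB and FOXM1. Without 10 nM replicate 5 the calls of RRM2 (0.11), FOXM1 (0.17) and AURKB (0.32) were lost, and without 10 nM replicate 3 those of FOXM1 (0.054) and AURKB (0.065). The AURKB call was also lost without any 1 of 6 low-dose libraries, replicates 4 and 5 at 0.03 nM and replicates 3 and 4 at 0.06 and 0.1 nM (0.054 to 0.061), and its direction turned, to a rise of 5.17 points, where the summit had to lie inside the region.

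Low doses against vehicle moved no LNCaP promoter of the 39 past the threshold, with 0 higher and 0 lower by limma and 1 (higher) at an unadjusted p under 0.05. The backgrounds were 0.526% higher and 0.212% lower, and 0 of 39 were called under all alternatives tried. For a response that turns with dose, the low doses were set against the mean of vehicle and 10 nM. Of the 39 promoters 0 were called in either direction, against 0.417% higher and 0.219% lower over all genes, and 5 were higher at an unadjusted p under 0.05. Their median was 0.48 points, against 0.43 over all genes. AURKB, in the window off its strongest summit, had the smallest adjusted p of the promoters named here. Its difference was 4.42 points (SE 1.24, adjusted p 0.057, limma). It passed with the replicate block and without 10 nM replicate 4 or vehicle replicate 3. TYMS, which makes thymidylate, was called higher where the summit had to lie inside the region, and RRM2 without 10 nM replicate 3.

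In VCaP, CDC25A was the only leading promoter of the 39 called at 10 nM against vehicle. It fell by 8.00 points (SE 1.88, adjusted p 0.012, limma), with 1 of 39 lower and 0 higher, against 1.02% lower and 0.741% higher over all genes. Against the low doses CDC25A fell by 7.08 (SE 1.54, adjusted p 0.0090), again 1 lower and 0 higher, against 0.561% and 0.235%. The first call was lost on log2 fold enrichment (adjusted p 0.075) and in a fit of only the groups compared (0.16), and the second on log2 fold enrichment (0.22) and without 10 nM replicate 2 (0.056). With the replicate block BUB1B was called lower beside CDC25A in both of these contrasts. Low doses against vehicle called 0 of 39 in each direction (backgrounds 0.18% higher and 0.00692% lower, 1 at an unadjusted p under 0.05). The low doses against the mean of vehicle and 10 nM also called 0 (backgrounds 0.0346% higher and 0.0208% lower, 2 at an unadjusted p under 0.05), and both counts were 0 under the alternatives tried.

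A second window 856 bp from the BIRC5 start rose in VCaP. BIRC5 encodes survivin, of the chromosomal passenger complex. The window was at 0 in the 3 vehicle libraries and in 7 of 9 low-dose libraries, and stood at 64.4, 86.1 and 64.0 at 10 nM, a rise of 71.5 points (SE 16.1, adjusted p 0.0092, limma). This window passed the filter only through the 10 nM libraries, where it was high, so its call is no support for a change. At 10 nM its values were those of the leading BIRC5 promoter window, since 1 broad peak reached both, and it was not testable where a peak had to cover its centre. The leading window itself was at 57.7, 81.4 and 75.1 with vehicle and did not differ (0.087 points, SE 7.28).

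Other genes of the pathway were counted from a list of 54 by their leading promoters, 53 of which were tested. In LNCaP 0 were called in either direction in the 4 contrasts. Over all genes 6.68% were lower and 1.56% higher at 10 nM against vehicle, and 4.24% and 0.875% against the low doses. In the remaining contrasts at most 0.526% were called in a direction. In VCaP at 10 nM, DLGAP5, a spindle factor, and GINS3, a helicase partner, were lower against vehicle (3.77%, against 1.02% of all genes). GINS3 was lower against the low doses (1.89%, against 0.561%). In both contrasts 0 were higher, against 0.741% and 0.235% of all genes. Their median difference at 10 nM against vehicle was −0.56 points in LNCaP and −0.94 in VCaP, against −1.05 and −0.21 over all genes.

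**Figure D3:**
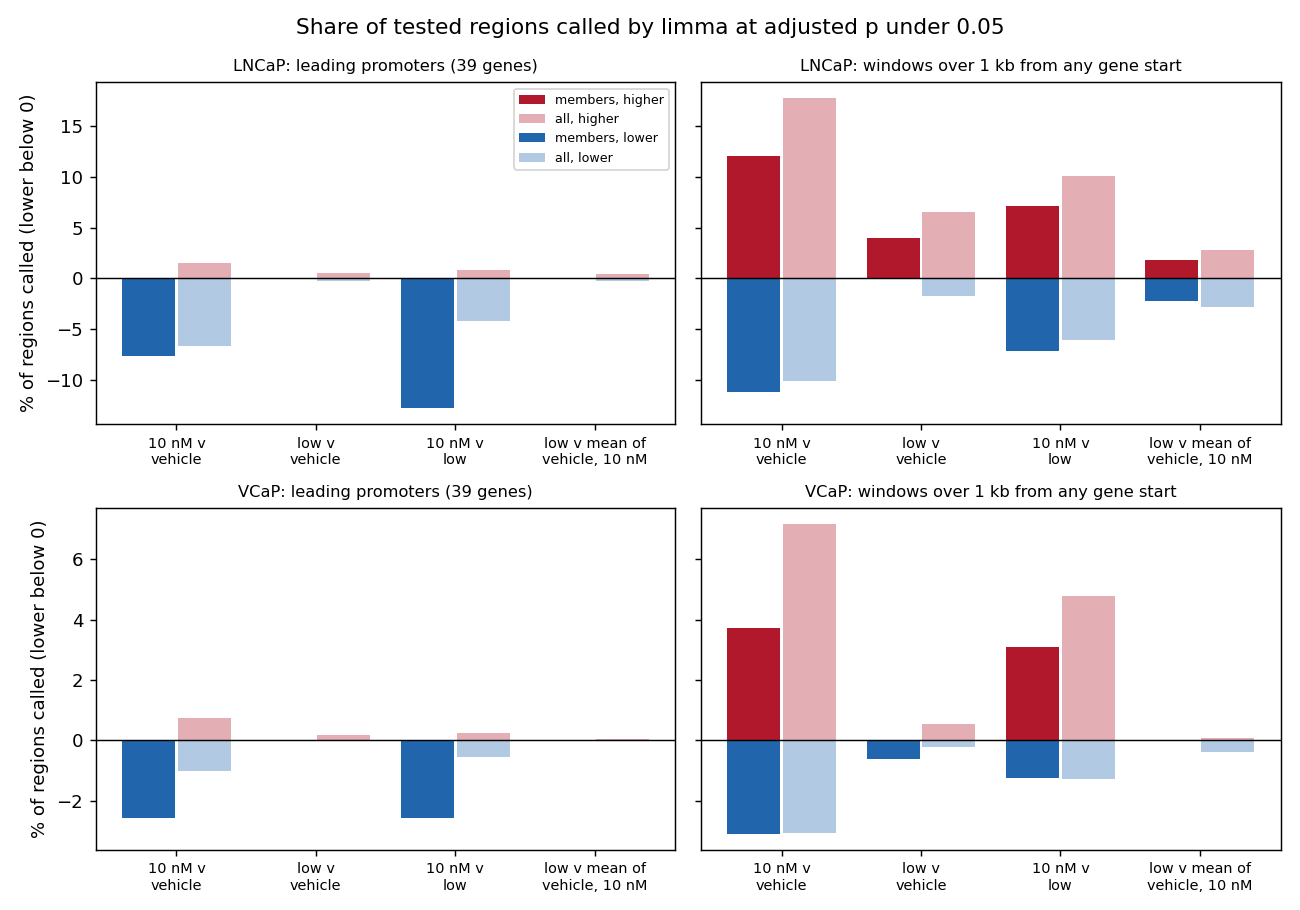
Percent of tested regions called by limma at an adjusted p under 0.05 (lower calls drawn below 0) for the members (dark bars) and for all protein-coding promoters or all distal regions (pale bars), per contrast and line. Member promoters have only lower calls, and the members' distal shares of higher calls lie below the pale bars.

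Distal regions of the members changed in both directions. In each LNCaP library 152 to 199 of the 555 had a peak, and in each VCaP library 103 to 138. These are 27.4 to 35.9% and 18.6 to 24.9%, against 25.9 to 30.2% and 17.7 to 23.7% of all distal regions. At 10 nM against vehicle in LNCaP, 27 of 224 tested distal regions were higher (12.1%), near 19 genes, and 25 were lower (11.2%), near 17 genes. All regions over 1 kb from a gene start were called at 17.8% and 10.1%. In VCaP 6 of 161 were higher and 5 lower, against 7.18% and 3.05%. Of the 358 member regions tested in LNCaP 102 shared all their values with another, as did 77 of 299 in VCaP, so counts of regions run above counts of separate peaks. A region near a member can lie closer to the start of another gene, which is named where so. Of the LNCaP regions higher, 3 (near MCM3, CDK1 and MCM5) were listed only at 10 nM, and of the VCaP regions lower, 1 (near MYBL2) only with vehicle. These passed the filter through the group where they were high, so their calls are no support for a change. The same holds for regions described below that no vehicle library and only 2 low-dose libraries listed. They lie near KIF11 in LNCaP and near CENPF and RRM1 in VCaP. Other called regions were not screened for this.

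A rise in both lines was seen 19044 bp outside CENPF, a kinetochore protein gene (chr1:214583901-214584401, hg38). LNCaP ranks were 0, 0 and 0 with vehicle, from 0 to 70.2 (median 42.1) at low doses, and 85.7, 74.0 and 83.6 at 10 nM. VCaP ranks were 0, 0 and 0, then a peak in 2 of 9 low-dose libraries, then 68.2, 76.8 and 74.0. All 10 nM libraries lay above all others in both lines, with a rise of 81.1 points in LNCaP (SE 10.1, adjusted p 4.0e-05, limma) and 73.0 in VCaP (SE 13.6, adjusted p 0.0026). The region passed the filter in VCaP only through the 10 nM libraries, where it was high. Its VCaP call is therefore no support for a change. In VCaP it was not testable at the stricter peak threshold or among regions listed in 8 or more libraries.

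A region 7319 bp outside MCM7, a helicase subunit, and nearest to the start of AP4M1 (chr7:100108466-100108966) was also unlisted with vehicle in both lines. Its 10 nM ranks were 59.9, 53.3 and 53.3 in LNCaP and 76.0, 73.8 and 62.4 in VCaP, with differences of 55.5 (SE 8.38, adjusted p 0.00018) and 70.7 (SE 15.4, adjusted p 0.0075) in limma. In VCaP 6 of the 9 low-dose libraries listed it, against 3 in LNCaP. A region 13406 bp outside RRM1, the large subunit of ribonucleotide reductase, was at 0 in all vehicle libraries of both lines. Its 10 nM ranks were 44.7, 29.1 and 43.2 in LNCaP and 25.1, 23.7 and 43.8 in VCaP. Only 2 low-dose VCaP libraries listed it, so in VCaP it passed the filter through the 10 nM libraries. The VCaP call is therefore no support for a change. That call was also lost where the summit had to lie inside the region (0.12), in a fit of only the groups compared (0.12) and without 10 nM replicate 4 (0.050). Near MCM5 (nearest start HMOX1) a region was at 0 with vehicle and at 64.4, 66.1 and 74.9 at 10 nM in VCaP (68.4 points, SE 15.03, adjusted p 0.0078), while LNCaP listed it at 25.8, 5.61 and 19.9 at 10 nM only. A region near CDC20 (nearest start ELOVL1) was called higher in both lines, but the call was lost in VCaP with the summit inside the region (0.67), with only the groups compared (0.068) and without 10 nM replicate 1 or 4 or vehicle replicate 1 or 2 (0.051 to 0.058). In LNCaP it was lost with fold enrichment ranks (0.23), with the summit inside the region (0.11), on log2 fold enrichment (0.084) and without any 10 nM library or vehicle replicate 3 or 4 (0.063 to 0.11).

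KIF11 encodes the motor that separates spindle poles. A region 8148 bp outside the gene and nearest to the start of HHEX (chr10:92663293-92663793) was unlisted in LNCaP with vehicle, listed in 2 of 9 low-dose libraries and at 62.1, 62.3 and 68.3 at 10 nM (64.2 points, SE 10.0, adjusted p 0.00025, limma). It passed the filter only through the 10 nM libraries, where it was high, so this call is no support for a change. VCaP listed it in 1 library of 15, so it was not tested there. CDK1 had a region 10672 bp outside the gene (chr10:60767409-60767909) that LNCaP listed only at 10 nM, at 42.5, 42.4 and 54.7, and VCaP in 0 libraries. In VCaP a region within BIRC5 (chr17:78223059-78223559) stood at 20.4, 0 and 0 with vehicle, at a median of 41.0 at low doses, and at 85.2, 81.2 and 74.9 at 10 nM (73.6 points, SE 12.5, adjusted p 0.0015). LNCaP listed it in 0 libraries.

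By size of change the largest LNCaP rise was a region 8700 bp outside MCM2, next to the TPRA1 start, from 0, 0 and 0 to 96.7, 96.9 and 97.0 (96.9 points, SE 32.8, adjusted p 0.049, limma). It was listed at ranks near 97 in some low-dose libraries and at 0 in others. The call was lost where a peak had to cover the centre (adjusted p 0.24), with fold enrichment ranks (0.050), and without any 1 of the 6 libraries (0.095 to 0.11), and the region was not testable by summit.

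Falls were also seen in both lines. A region 18846 bp outside MCM4, with PRKDC as the nearest start, stood in LNCaP at 89.9, 91.1 and 82.7 with vehicle, at 69.7 to 89.3 (median 86.6) at low doses, and at 60.1, 40.8 and 54.3 at 10 nM. VCaP ranks were 87.0, 75.1 and 73.2 with vehicle and 30.6, 34.6 and 11.8 at 10 nM. The falls were 36.2 points (SE 4.50, adjusted p 3.9e-05) and 52.8 points (SE 12.45, adjusted p 0.012) in limma, and the VCaP call was lost without 10 nM replicate 4 (0.059) or vehicle replicate 1 (0.057). In LNCaP alone, a region 10700 bp outside SKP2 and nearest to the start of NADK2 (chr5:36203980-36204480) went from 49.3, 59.3 and 58.9 to 1.87, 0 and 0, a fall by 55.2 (SE 10.2, adjusted p 0.00092), and VCaP listed it in 0 libraries. This SKP2 call was lost at the stricter peak threshold (0.77), and that of the adjoining window also with all peaks (0.064), the centre covered (0.082) and the summit inside (0.094). A region 21142 bp outside E2F1 and nearest to the start of C20orf144 (chr20:33654085-33654585) went in LNCaP from 91.2, 89.2 and 86.4 to 47.2, 57.2 and 50.1 (adjusted p 0.00051, limma). VCaP also listed this region, at 48.6 to 76.9 (median 65.4) over the 9 low-dose libraries, and there it was not called at 10 nM against vehicle.

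**Figure D4:**
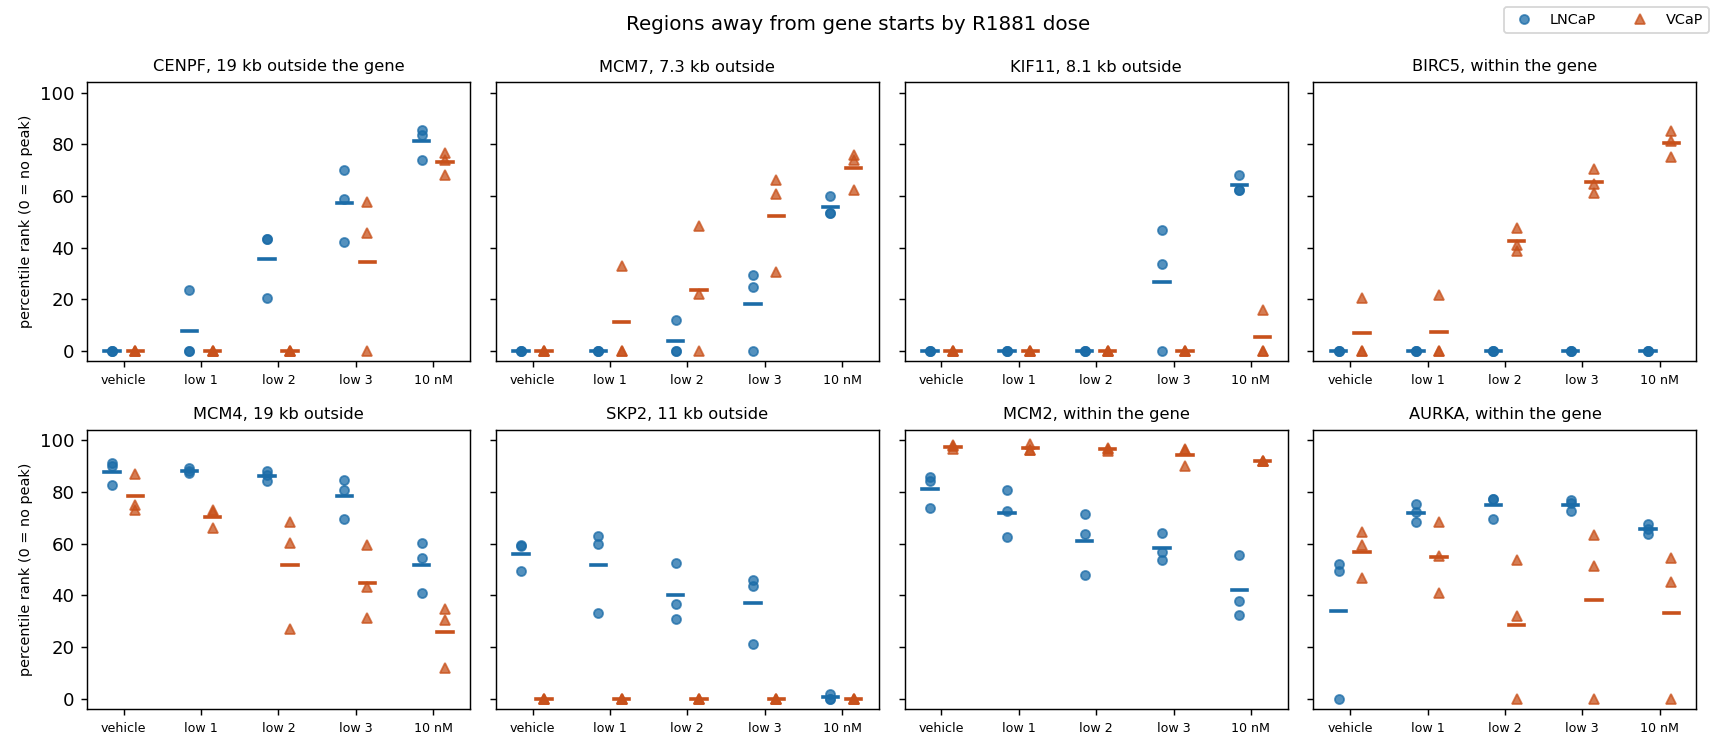
Percentile rank (vertical axis, 0 for no peak) of 8 regions away from gene starts by dose, with points for libraries and bars for group means; low 1 to 3 are 0.03, 0.06 and 0.1 nM in LNCaP and 0.01, 0.03 and 0.06 nM in VCaP. CENPF and MCM7 rise in both lines, MCM4 falls in both, and AURKA in LNCaP is highest at the low doses.

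Low doses against vehicle in LNCaP raised 9 of the 224 distal regions (near AURKA, CDK1, CENPE, CENPF, MCM4 and MCM5) and lowered 0 by limma (8 lower at an unadjusted p under 0.05), against 6.51% and 1.71% of all distal regions. On log2 fold enrichment, over member regions with a peak in all libraries, 0 were higher and 2 lower. In VCaP 0 were higher (4 at an unadjusted p under 0.05) and 1 lower, against 0.536% and 0.203%. The lower region lay 24365 bp outside MYBL2 and was listed only with vehicle, at 23.5, 11.8 and 19.97, so that it was tested only through those libraries. Within CENPE, the kinetochore motor gene, a region nearest to the start of BDH2 (chr4:103131374-103131874) stood in LNCaP at 47.1, 48.5 and 0 with vehicle, at 61.8 to 85.9 (median 76.4) at low doses and at 84.6, 85.2 and 80.7 at 10 nM. It had already risen by 43.7 points at low doses (SE 7.74, adjusted p 0.0021, limma).

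At 10 nM against low doses in LNCaP 16 distal regions were higher and 16 lower, against 10.1% and 6.04%, and in VCaP 5 were higher and 2 lower, against 4.79% and 1.28%. The low doses against the mean of vehicle and 10 nM called 4 higher (near AURKA, CDC25C and MCM4) and 5 lower (near CDK1, MCM2, MCM3 and MCM7) in LNCaP, against 2.81% and 2.78%. In VCaP limma called 0 distal regions, against 0.0871% and 0.366%, with 4 higher and 7 lower at an unadjusted p under 0.05. A region within AURKA, the spindle pole kinase gene (chr20:56380274-56380774), stood in LNCaP at 49.3, 52.0 and 0 with vehicle, at 68.3 to 77.5 (median 75.2) at low doses and at 63.7, 67.7 and 65.6 at 10 nM. Every low-dose library lay above every other one, by 24.2 points on this contrast (SE 6.30, adjusted p 0.039, limma). The call was lost with all peaks as deposited (0.12), with fold enrichment ranks (0.057), among regions listed in 8 or more libraries (0.055) and in each fit without 1 of the 9 low-dose or 3 10 nM libraries (0.057 to 0.10).

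LNCaP and VCaP differed in their 10 nM change at 1 of 256 member regions tested in both, a region within MCM2 (chr3:127606846-127607346). LNCaP ranks went from 85.9, 84.1 and 73.9 to 55.5, 32.5 and 37.7, and VCaP ranks from 98.4, 96.8 and 97.7 to 92.0, 91.9 and 92.1, so both lines fell. The difference of −33.8 points (SE 7.76, adjusted p 0.017, limma) stood against 1.6% of all regions higher in LNCaP and 0.89% lower. VCaP began near the top of its lists, where ranks are compressed, and on log2 fold enrichment the difference was not called (adjusted p 0.71). The difference was also not called without LNCaP 10 nM replicate 4 (0.059) or 5 (0.053). It was lost with fold enrichment ranks (0.14), at the stricter peak threshold (0.25) and with only the groups compared (0.058). The VCaP fall itself (5.63 points, SE 1.58, adjusted p 0.033, limma) was lost without any 1 of the 3 10 nM libraries or vehicle replicate 1 or 4 (0.068 to 0.093). That fall was also lost with all peaks (0.076), fold enrichment ranks (0.14) and log2 fold enrichment (0.27).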

How the data were processed

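Chromatin accessibility was measured in 30 libraries, and groups came from the labels. Tools listed in the submitters' processing notes are MACS2 2.2.7.1, Trimmomatic 0.39, deepTools 3.5.1 and BWA 0.7.17, on GRCh38 (hg38); their settings are not given in the sources used here. The authors deposited 1 peak list per library, with a score per peak, a fold enrichment (a ratio over local background), and −log10 p and −log10 q values. Peak lists on chromosomes 1 to 22 and X were shortened to 134750 entries in LNCaP and 104726 in VCaP, and ranked by the deposited −log10 p in windows of 501 bp centred on summits. A difference is in percentile points.

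Regions that 3 or more of the 15 libraries listed were fitted by group in limma 3.58.1 (R 4.3.3) with trend and robust variance, two-sided, with Benjamini-Hochberg adjustment over all regions. A fit of all 30 libraries compared the lines. The fit was tested on simulated ranks: it returned the sizes put in and made almost no false calls, but it called none of the simulated moves when few regions moved, so counts of 0 calls do not exclude moderate changes. A pass mark on power, first required, was dropped after several simulated settings had been tried.

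The members and lists were chosen with earlier results of these data known. Values by library are given for 12 promoters chosen as 1 or 2 per role, and for called regions: per contrast and line, the promoters with the 6 smallest p in each direction, and other regions with the 6 largest differences in each direction whose groups did not overlap, 1 per gene. The text gives those that differ most between doses or lines. Gene starts came from RefSeq, and where no strand was at hand, for 7 genes, either end of the gene body served. Alternatives covered list length, ranking, scale, overlap, threshold, filter, samples fitted, promoter distance, a replicate block and each library left out. The requirement that the summit lie inside the region was added after seeing the data. Some luminal markers are not reported here.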

Additional observations from a re-analysis of the deposited data

Results flagged for a closer look

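The change at 10 nM against vehicle in the region within MCM2 differed between the cell lines, by −33.8 percentile points (LNCaP change minus VCaP change), in the fit that tested the difference itself. LNCaP fell by 39.4 points (SE 7.41) and VCaP fell by 5.63 points (SE 1.58). The call was lost without LNCaP 10 nM replicate 4 (adjusted p 0.059, limma) or replicate 5 (0.053), and with fold enrichment ranks (0.14). It was also lost at the stricter peak threshold (0.25), with only the groups compared (0.058) and on log2 fold enrichment (0.71).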

How the results depend on the processing

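Counts of member regions called moved with the settings, and the cause was not tested. Tested in the main fits were 358 member regions in LNCaP and 299 in VCaP. The background moved too. At 10 nM against vehicle in LNCaP, 6.68% of leading promoters over all genes were lower, 34.9% ranked by fold enrichment, 33.6% on log2 fold enrichment and 1.26% with all peaks. Shares over all regions are not given per setting, so the counts below are not results about the members. LNCaP, 10 nM against vehicle, gave 64 (28 higher, 36 lower), 99 ranked by fold enrichment (25 and 74), 39 at the stricter peak threshold, and 37 to 68 without 1 library, lowest without 10 nM replicate 4; the split was 40 and 9 with all peaks as deposited and 8 and 53 on log2 fold enrichment. LNCaP low doses against vehicle gave 9 (all higher), 14 with all peaks (12 higher, 2 lower) and 2 on log2 fold enrichment (both lower); 5 higher and 3 lower were called at the stricter threshold. LNCaP 10 nM against low doses gave 45 (16 higher, 29 lower, but 20 and 11 with all peaks), 16 on log2 fold enrichment, and 20 to 52 without 1 library, lowest without 10 nM replicate 5. LNCaP low doses against the mean of vehicle and 10 nM gave 9, 3 with a peak in at least 8 libraries, 0 on log2 fold enrichment, and 3 to 12 without 1 library. VCaP 10 nM against vehicle gave 14 (7 and 7), 9 with at least 8 libraries, 6 at the stricter threshold, 2 on log2 fold enrichment (both lower), and 8 to 13 without 1 library. VCaP low doses against vehicle gave 1, and 0 with at least 8 libraries, all peaks, the centre covered, the stricter threshold, log2 fold enrichment, only the groups compared, or without any 1 library. VCaP 10 nM against low doses gave 10 (6 higher, 4 lower, but 2 and 5 with all peaks), 5 with at least 8 libraries, 3 at the stricter threshold, 0 on log2 fold enrichment, and 5 to 12 without 1 library. The difference between lines gave 1, 0 ranked by fold enrichment, 2 with the centre covered or the summit inside, and 0 to 3 without 1 library. With the replicate block the counts were 14 for LNCaP low doses against vehicle, 68 for LNCaP 10 nM against low doses, 16 for LNCaP low doses against the mean of vehicle and 10 nM, and 7 between lines. Same-numbered libraries had a median correlation of 0.12 in LNCaP (lowest -0.15) and 0.16 in VCaP (lowest 0.076), and 11 of 15 and 15 of 15 libraries correlated best with their own number, a hint from the data and not the design. For AURKB, LNCaP 10 nM against low doses, the difference was 5.17 with the summit inside the region, the only reversal among 949 alternatives of 57 named values; 792 kept their call and direction and 156 lost the call. Depth in reads is unknown, weak peaks near the end of a list can be missed in shallower libraries, and ranks near 100 hide changes in signal.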
